A study of Mus musculus with 3 samples.

Results

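Reads assigned to Rfam miRNA precursor families were counted in extracellular vesicles (EVs) from the testis of the neonatal mouse. Rfam groups RNAs that share a sequence and a fold, and each family is searched with a covariance model built from an alignment of its members. The members here are the catalogue entries whose type is given as precursor, and 259 such families were counted among 2780 small RNA entries. The series holds 3 libraries of small RNA from EVs of PND7 testis, each from a preparation of 10 C57/BL6 male mice, and no other condition. Digestion with proteinase K, stopped with PMSF, and then with RNase A was meant to remove RNA outside the vesicle membrane. The RNA left after it was sequenced, and how complete the digestion was is not given. Sample titles include the term treated, while the source field describes EVs isolated from testis. EVs of a whole testis come from all its cell types, and the data do not separate them. The libraries are called replicates 1 to 3, and every SD is over these 3 libraries. A figure legend of the study gives 3 samples for its small RNA sequencing, each of EVs pooled from 10 mice. The sample titles number them as biological replicates 1 to 3. The study's statement on statistics names fewer sets for small RNA sequencing, which it calls independent cultures of each treatment group. How that statement relates to the 3 libraries is not given, so the SDs may be partly technical.

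A miRNA gene is transcribed as a long RNA that folds into a hairpin. Drosha cuts the hairpin from the transcript, Dicer removes its loop, and a strand of the remaining duplex is loaded into an Argonaute protein as the mature miRNA. Bases 2 to 8 of the mature miRNA, the seed, pair with target mRNAs, so miRNAs with the same seed can share targets. In the neonatal testis miRNAs are needed for the survival and differentiation of spermatogonia and for the function of Sertoli cells. The authors gave each read to a single class, with miRBase before Rfam, so a read counted on a precursor family is one that the miRBase classes had not taken. The count is therefore named a precursor count after the database entry, and it does not show that a whole precursor was present.

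The mature sequences of the leading families, of the miRNAs that share a genomic cluster with mir-23, and of the families that differed most between libraries or between entry types are shown to make the family names concrete. Capitals mark the seed, and the sequences come from RefSeq on build GRCm38.p6.
miR-23a-3p: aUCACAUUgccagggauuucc
miR-27a-3p: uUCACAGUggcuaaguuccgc
miR-24-3p: uGGCUCAGuucagcaggaacag
miR-199a-5p: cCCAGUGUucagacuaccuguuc
miR-199a-3p: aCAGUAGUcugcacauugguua
let-7c-5p: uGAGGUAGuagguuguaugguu
miR-30a-5p: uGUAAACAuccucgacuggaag
miR-181a-5p: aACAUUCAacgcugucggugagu
miR-34a-5p: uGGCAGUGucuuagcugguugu
miR-34b-5p: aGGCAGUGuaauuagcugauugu
miR-449a-5p: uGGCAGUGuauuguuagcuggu
miR-449c-5p: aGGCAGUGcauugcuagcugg
miR-127-3p: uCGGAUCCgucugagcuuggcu
miR-132-3p: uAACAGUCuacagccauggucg
miR-192-5p: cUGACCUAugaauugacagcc
The miR-34 and miR-449 sequences carry the same seed, GGCAGUG, under different family names. The members of the mir-23, mir-27 and mir-24 families lie side by side in the genome and carry different seeds.

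The hairpins of the leading families, and that of mir-127 as the family with the fewest precursor reads for its mature reads, are printed with the annotated mature arms in capitals. Mir23a lies at chr8:84208518-84208592 on the plus strand, and no GENCODE gene spans it. Mir23b lies at chr13:63300484-63300557 on the plus strand, inside 2010111I01Rik and opposite Fancc and outside the exons of both. RefSeq annotates only its 5p arm, so its 3p arm is not in capitals. The catalogue of these libraries does count miR-23b-3p, with 2207, 2972 and 2398 mature reads in replicates 1, 2 and 3. Mature miR-23b-5p had 11, 0 and 59. Mir199a-2 lies at chr1:162217814-162217923 on the plus strand, in an exon of the noncoding transcript Dnm3os and opposite Dnm3. Mir127 lies at chr12:109592846-109592915 on the plus strand, opposite an exon of the imprinted gene Rtl1.
Mir23a: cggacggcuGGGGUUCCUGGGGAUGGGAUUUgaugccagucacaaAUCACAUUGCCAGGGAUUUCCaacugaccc
Mir23b: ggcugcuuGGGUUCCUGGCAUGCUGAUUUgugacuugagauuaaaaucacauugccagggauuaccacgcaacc
Mir199a-2: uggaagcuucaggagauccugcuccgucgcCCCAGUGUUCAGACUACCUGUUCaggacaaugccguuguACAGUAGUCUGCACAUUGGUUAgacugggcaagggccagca
Mir127: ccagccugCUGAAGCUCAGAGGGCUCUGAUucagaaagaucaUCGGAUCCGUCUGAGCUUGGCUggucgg

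The libraries had 25716952, 26002463 and 27939308 clean reads, and 117473, 157412 and 148643 of these were on precursor families. The precursor class held 0.457%, 0.605% and 0.532% of clean reads, with a mean of 0.531% ± 0.0743 (SD, n = 3). Of all miRNA reads, that is mature, hairpin and precursor reads together, it held 8.53% ± 0.519 (SD, n = 3). At this depth the exact binomial 95% interval of a family's share of precursor reads is no wider than ± 0.240 percentage points and covers counting error only, since PCR copies were not told apart. To check whether a library had been deposited more than once, counts were compared over the 95 families with at least 10 reads in every library. A chi-square statistic divided by its degrees of freedom was, between pairs of libraries, 57.1 to 97.7, so each pair differed by more than counting noise, as separate preparations can. Spearman's rho between libraries over these families was 0.870 to 0.918, and over all 259 families it was 0.702 to 0.765, given as a description.

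Mature miRNA entries were used to check the labelled tissue. miR-202-5p, a gonadal miRNA made by Sertoli and germ cells, had 16196, 28519 and 24105 reads in replicates 1, 2 and 3. Of 5 germ cell markers, miR-34c-5p and miR-465a-5p were at 0 in every library. The other 3 were present in every library, with 385, 1066 and 630 reads for miR-449a-5p, 161, 288 and 264 for miR-741-3p and 283, 618 and 530 for miR-871-3p. The endothelial miR-126a-3p had 7571, 11551 and 16414 reads and the red cell miR-451a had 452, 319 and 385. The other red cell marker, miR-144-3p, had 7, 6 and 4 reads. Of the leukocyte markers, miR-142a-3p had 10, 2 and 1 reads and miR-223-3p had 33, 1 and 21. The liver marker miR-122-5p had 0, 1 and 0 reads. Of the neuronal markers, miR-124-3p had none and miR-9-5p had 1, 24 and 1, with replicate 2 high. Of the skeletal muscle markers, miR-133a-3p had 454, 322 and 550 reads and miR-206-3p had 96, 13 and 141. Gonadal and most germ cell markers were thus present beside those of vessels and skeletal muscle. Blood markers other than miR-451a had few reads. The counts of miR-451a and miR-133a-3p lay within the range of the germ cell markers that were present.

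A small set of families held most precursor reads. mir-23, mir-199, let-7, mir-30 and mir-181 together had 66.5% of them on average, with 65.0% in the lowest library and 68.0% in the highest, and the 20 leading families had 88.5% ± 1.36. Shares compare reads and not molecules per base, because the lengths of the Rfam models are not given in the files.

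mir-23, a family linked to vessel growth and muscle, had 26480, 35532 and 24897 precursor reads in replicates 1, 2 and 3. These are 22.5%, 22.6% and 16.7% of precursor reads, with a mean of 20.6% ± 3.35 (SD, n = 3), and replicate 3 was the low library. mir-199, whose hairpins lie opposite the dynamin genes and which marks mesenchymal cells, had 24273, 31015 and 30346 reads. Its share was 20.3% ± 0.498 (SD, n = 3), and its highest share was 1.05 times its lowest. The difference between mir-23 and mir-199 was 0.361 ± 3.52 percentage points, mir-23 was higher in 2 of 3 libraries, and the log2 ratio was 0.01 ± 0.26 (p = 1, two-sided exact permutation of signs). The order of these families was thus not resolved by the spread between preparations.

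let-7, a family that restrains proliferation and holds developmental timing, had 12315, 17570 and 25450 precursor reads. Replicates 1 and 2 gave it a share of 10.5% and 11.2% and replicate 3 gave 17.1%, so it was high in the library in which mir-23 was low. mir-199 lay above let-7 in 3 of 3 libraries, by 7.34 ± 3.60 percentage points (SD, n = 3). let-7 lay above mir-30 by 6.29 ± 4.45 points, also in 3 of 3 libraries.

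mir-30, which acts in differentiating epithelia, had 8073, 11526 and 8472 reads, or 6.63% ± 0.838 (SD, n = 3). mir-181, known from lymphocytes and vessels, had 7100, 11427 and 7478 reads, or 6.11% ± 1.12. Both had their highest share in replicate 2, and mir-30 lay above mir-181 in every library by 0.520 ± 0.404 percentage points. mir-181 did not differ from mir-689 beyond the spread between libraries, with a difference of 0.871 ± 1.36 points.

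mir-689 was the family after these, with 6504, 7681 and 7887 reads and a share of 5.24% ± 0.333 (SD, n = 3). Its name was given to a mouse sequence, but neither RefSeq nor the GENCODE annotation used here holds a mouse miRNA gene of that number, and no sequence is printed for it. mir-23 exceeded mir-689 in 3 of 3 libraries, with log2 ratios of 2.03, 2.21 and 1.66 and a mean of 1.96 ± 0.28 (SD, n = 3). A two-sided exact permutation of signs gave p = 0.25, which is the smallest p that 3 libraries allow. The sign-permutation test therefore cannot pass a threshold of 0.05 here, whatever the size of the ratio.

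Below these, mir-1937 followed with 1509, 7554 and 4428 reads, a share of 1.28%, 4.80% and 2.98% and a mean of 3.02% ± 1.76 (SD, n = 3). Like mir-689 it is named after a mouse sequence and has no mouse gene of that number in the annotation used. Its order of libraries, 1 below 3 below 2, was also that of tRNA reads, which made up 3.53%, 5.10% and 3.77% of clean reads. The same order held for the whole precursor class as a share of clean reads and for the reads of mir-26, mir-24 and mir-92. It is thus not particular to mir-1937, and the part of tRNA in the mir-1937 reads was not tested. mir-133, a muscle family, had 3174, 2728 and 4416 reads and 2.47% ± 0.651, and did not differ from mir-1937 beyond the spread. mir-27 had 1.81% ± 0.0310 (SD, n = 3) and mir-26 had 1.72% ± 0.316. After mir-166, at 1.46% ± 0.452, the families from mir-10 to mir-16 held 0.884% down to 0.591% each, and no adjacent pair among them differed by more than the SD of the difference.

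**Figure D1:**
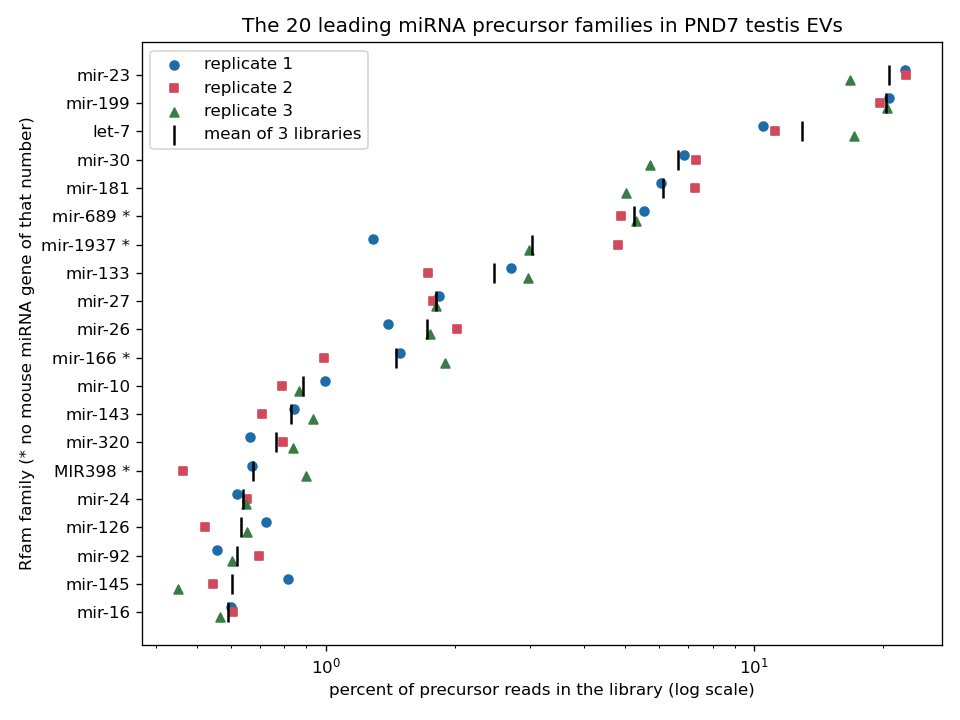
Share of precursor reads on a log scale for the 20 leading Rfam families, with a symbol for each of the 3 replicates and a bar at their mean; an asterisk marks a family with no mouse miRNA gene of that number. mir-23 and mir-199 overlap near 20.6% and 20.3%, replicate 3 is low for mir-23 and high for let-7, and the points of mir-1937 lie far apart.

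Among the families from mir-10 to mir-16, the high and low libraries differed from family to family. mir-10, encoded in the Hox clusters, had 1170, 1241 and 1288 precursor reads. mir-196, also from the Hox clusters but below this set with a mean share of 0.382%, had 429, 685 and 515. mir-320, which is made without Drosha, had 781, 1249 and 1248 reads. mir-92, of the mir-17/92 cluster, had 655, 1097 and 898, and replicate 1 was the low library for mir-320 and mir-92. mir-16, which represses cell cycle genes, had 706, 954 and 841 reads, and its shares of 0.601%, 0.606% and 0.566% were among the steadiest. Just above these, mir-26, a growth-restraining family, had 1638, 3189 and 2596 reads, with replicate 2 high.

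Families of muscle and vessel had no common order of libraries by share of precursor reads, with mir-145, mir-126 and mir-499 highest in replicate 1 and mir-143, mir-133, mir-1 and mir-208 highest in replicate 3. mir-143 had 987, 1119 and 1389 precursor reads and mir-145, made from the same smooth muscle transcript, had 956, 858 and 672, so their counts differed in order. The endothelial mir-126 had 851, 820 and 970 reads. Of the striated muscle families, mir-1 had 297, 276 and 391 reads, mir-499 had 138, 96 and 171, and mir-208 had 29, 33 and 42. The mature skeletal muscle markers miR-133a-3p and miR-206-3p had 454, 322 and 550 and 96, 13 and 141 reads, and the part of muscle RNA in these families was not tested.

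Further mouse families with at least 100 precursor reads in every library were mir-7, with 703, 824 and 894, mir-218, which lies in introns of the Slit genes, with 746, 615 and 689, and mir-378, which lies in a metabolic regulator gene, with 592, 656 and 510. mir-21, induced in growth and injury, had 346, 481 and 393 reads, and mir-29, which represses collagen genes, had 229, 266 and 307. These stayed within a ratio of 1.63 between the highest and the lowest share. mir-503, an X-linked family that did not reach this minimum, had 226, 344 and 64 reads, with replicate 3 low. mir-342 had 328, 279 and 618 reads and mir-139 had 111, 170 and 295, with replicate 3 high for both.

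The mir-23, mir-27 and mir-24 families come from the same genomic clusters, so their transcripts are made together. mir-27, which acts in fat and vessel cells, had 2160, 2797 and 2683 precursor reads, and mir-24, which acts on cell cycle genes, had 729, 1030 and 966. Of the precursor reads of the 3 families, mir-23 held 89.2% ± 1.73, mir-27 7.95% ± 1.26 and mir-24 2.83% ± 0.486 (SD, n = 3 each). Among the mature and hairpin reads of the same families the order was different. There mir-23 held 17.6% ± 2.18, mir-27 51.0% ± 4.45 and mir-24 31.5% ± 5.52 (SD, n = 3 each). The mir-23 ranges were 87.2% to 90.3% among precursor reads and 15.0% to 18.9% among mature and hairpin reads, and they did not overlap. A family of 3 from shared transcripts thus had unequal precursor reads, and the reason was not tested.

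**Figure D2:**
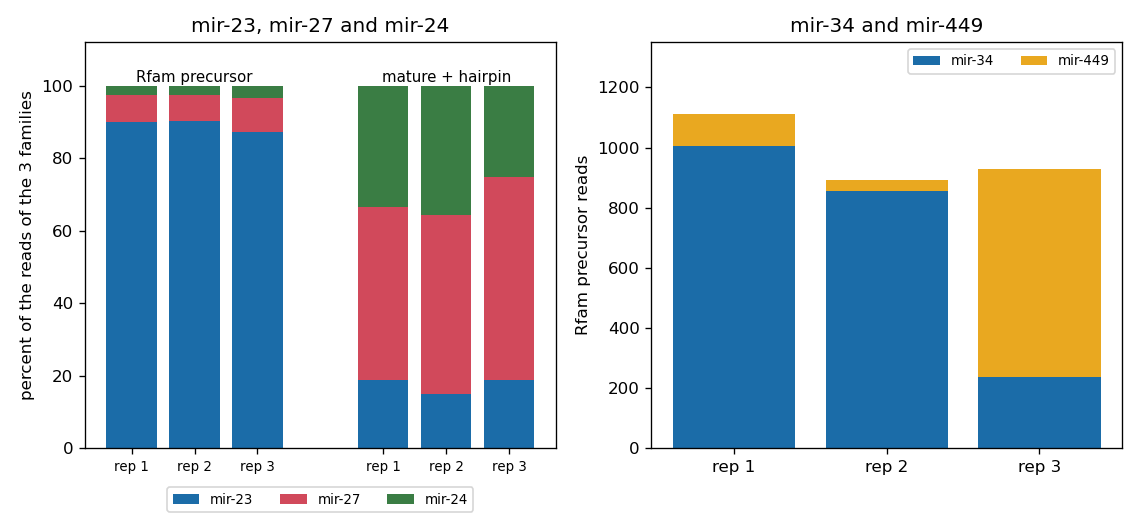
Left, the share in percent of mir-23, mir-27 and mir-24 among the reads of the 3 families in each replicate, for Rfam precursor reads and for mature plus hairpin reads. Right, the Rfam precursor reads of mir-34 and mir-449 stacked in each replicate; mir-449 is the larger part in replicate 3 only, while the summed height lies between 892 and 1112 reads.

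For each family the mature and hairpin entries of the same number were summed and set against its precursor reads in the same library. The number is the match, so a family that also holds other numbers, such as mir-10, is compared only with its own. The mature and hairpin counts were not used by the rule that chose the families, but both counts share a library. The families below were kept by their precursor reads, the numerator of the ratio, so families with few precursor reads for their mature reads are left out of the counts and the median that follow. Of the 39 families with at least 100 precursor reads in every library and a counterpart, 33 had fewer precursor than mature and hairpin reads in every library. The median log2 ratio of precursor reads to mature plus hairpin reads was -2.78, with a range of -6.20 to 3.44.

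Only 4 of the 39 families had more precursor reads in every library, and these were mir-132, mir-23, mir-192/215 and mir-133. mir-23 had 5029, 6749 and 6303 mature and hairpin reads, so its log2 ratio was 2.40, 2.40 and 1.98, with a mean of 2.26 ± 0.24 (SD, n = 3), and precursor reads made up 82.6% ± 2.45 of all reads of the family. mir-133 had 1643, 1345 and 2168 mature and hairpin reads, and its log2 ratio of 1.00 ± 0.04 varied little. The ratio of mir-132, a neuronal activity miRNA, was 3.44 ± 3.10, because only 2 mature and hairpin reads were counted in replicate 1 against 57 and 36. That of mir-192/215, known from gut and liver, was 1.63 ± 1.25, with 18, 116 and 103 mature and hairpin reads. mir-221 was next, at -0.07 ± 0.96. Set against mature reads alone, 12 of the 38 families with mature reads had more precursor reads in every library, including mir-199, mir-320, mir-17, mir-1 and mir-21. The match was again by number, so mature reads of other miRNAs that Rfam may join to such a family are not in this comparison.

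The lowest ratios belonged to mir-202, lin-4, mir-574, mir-196 and mir-34. mir-202 had 28685, 40056 and 39584 mature and hairpin reads against 345, 465 and 709 precursor reads, a log2 ratio of -6.20 ± 0.35 (SD, n = 3). lin-4 is the Rfam name for the family of mir-125, a regulator of developmental timing, and its ratio was -5.07 ± 0.56. let-7, with 312553, 405427 and 472211 mature and hairpin reads, had a ratio of -4.47 ± 0.23, whereas mir-199, with 50422, 73164 and 52994, had one of -1.03 ± 0.22. Leading families therefore ranged from more precursor than mature reads for mir-23 to far fewer for let-7.

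Below 100 precursor reads, mir-127 stood furthest from equality. mir-127, made from the strand opposite Rtl1 on the maternal allele, had 6, 9 and 8 precursor reads against 398263, 350714 and 328489 mature and hairpin reads, a log2 ratio of -15.53 ± 0.42 (SD, n = 3). mir-22, a miRNA of heart and muscle, had 68, 49 and 58 precursor reads against a mean of 13967 mature and hairpin reads, and mir-652 had a mean of 23.7 against 19585. These low families were picked by a mean of at least 10000 mature and hairpin reads after the values were seen.

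**Figure D3:**
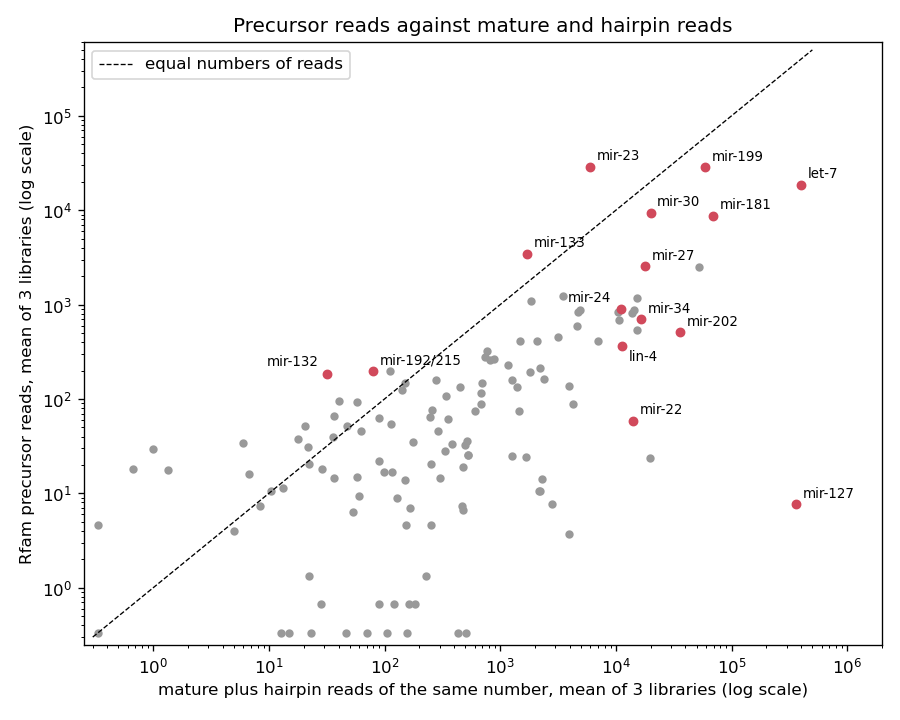
Mean Rfam precursor reads of 3 libraries against mean mature plus hairpin reads of the same number, both on log scales, with a dashed line at equality and labelled families in red. mir-23, mir-133, mir-132 and mir-192/215 lie above the line, and mir-127 lies near 359155 mature and hairpin reads with 7.67 precursor reads.

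The mir-34 and mir-449 families, which share a seed, each varied more between libraries than their sum. mir-34 and mir-449 act in germ cells and ciliated cells, and mir-34 had 1006, 857 and 236 precursor reads, the widest spread among families with at least 100 reads in every library. mir-449 had 106, 35 and 692 reads, so it was high in replicate 3, the library where mir-34 was low, and it held 9.53%, 3.92% and 74.6% of the summed reads. The highest share was 5.39 times the lowest for mir-34 and 20.9 times for mir-449, but 1.67 times for their sum of 1112, 892 and 928 reads. Mature reads did not change places in this way, since mature mir-34 had 14334, 9537 and 12657 reads and mature mir-449 had 385, 1066 and 630. Their order of libraries was also opposed, but with mature mir-34 lowest and mature mir-449 highest in replicate 2. The pair was chosen after its values were seen, and the ratio of a sum cannot exceed the larger ratio of its members. Whether reads moved from a family to the other in the assignment was not tested. Within the mir-199 family, the hairpin entry of miR-199a-3p had 1324, 1089 and 45885 reads and that of miR-199b-3p had 41394, 61303 and 187. The mature entries were high in other libraries, with 2722, 135 and 35 reads for miR-199a-3p and 205, 3529 and 2766 for miR-199b-3p. The annotated arms of miR-199a-3p and miR-199b-3p have the same sequence, so a read of that arm alone does not tell these entries apart. Differences between the entries therefore cannot be read as differences between the miRNAs. The precursor family, which does not separate these genes, had a highest share 1.05 times its lowest.

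Of the 259 families, 127 were counted in all 3 libraries, 43 in 2 and 89 in 1. Families of at least 10 reads in every library numbered 95 and of at least 100 numbered 50, and 61 families had fewer than 10 reads in all. The median ratio of highest to lowest share was 1.82 over the 95 families, 1.62 over the 50 and 1.40 over the 12 with at least 1000 reads in every library. Mature entries at the same minimums had medians of 1.73, 1.51 and 1.37 (n = 272, 148 and 59), and hairpin entries had 1.80, 1.45 and 1.35 (n = 324, 161 and 56). The median of precursor families thus lay close to those of the other miRNA entries but above them at each minimum, and no test of the difference was made. Each set was scaled to the total of its own class, and an Rfam family can join several genes.

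The steadiest families with at least 100 reads in every library were mir-27, mir-199, mir-24, mir-16 and mir-689, with ratios of 1.03 to 1.13. The widest after mir-34 were mir-1937 at 3.74, the red cell family mir-451 at 3.12, mir-132 at 2.94 and MIR169_2 at 2.66. mir-451 had 591, 254 and 388 precursor reads, with replicate 1 high. Mature miR-451a was also highest in replicate 1, with 452, 319 and 385 reads.

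Families with at least 50 reads in a library and none in another were mir-124, mir-431, mir-433, mir-458, mir-873, mir-471, mir-1497 and GlsR1. The neuronal mir-124 had 1, 54 and 0 reads, and mir-471, of the X-linked germ cell cluster, had 3, 82 and 0. mir-431 had 23, 51 and 0 reads and mir-433 had 60, 0 and 6, both in the imprinted Dlk1-Dio3 cluster. GlsR1, a Giardia name, had 83 reads in replicate 1, a share of 0.0707% (exact binomial 95% interval 0.0563% to 0.0876%), and 0 in replicates 2 and 3. A count of 0 allows a share of up to 0.00191% in replicate 2 and 0.00202% in replicate 3, taking 3 reads as the limit. The families of 1 library were small otherwise, with 53 of 89 under 10 reads.

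**Figure D4:**
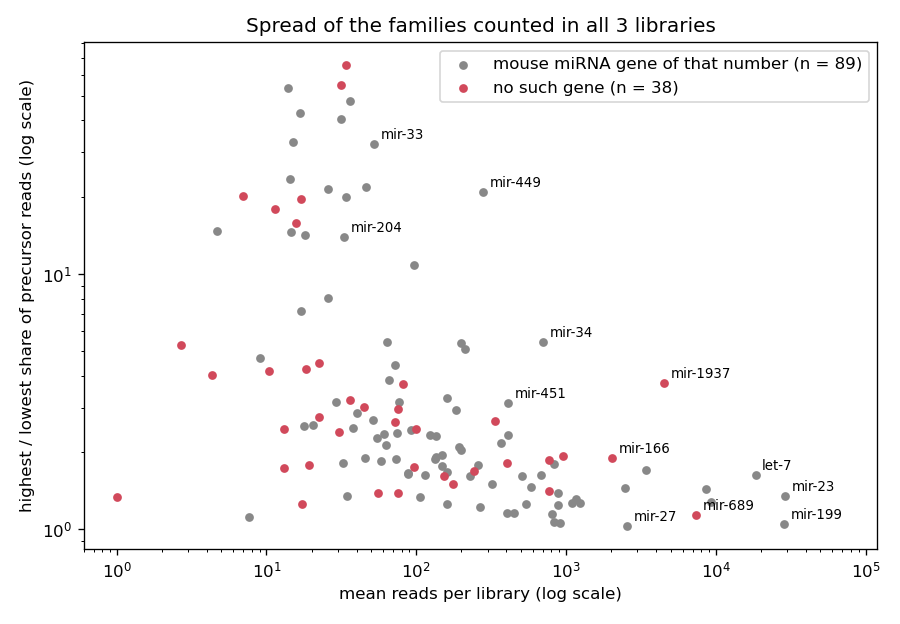
Ratio of the highest to the lowest share of precursor reads over 3 libraries against mean reads per library, both on log scales, for families counted in all 3 libraries, in grey with a mouse miRNA gene of that number (n = 89) and in red without (n = 38). Ratios fall with depth, mir-27 and mir-199 lie near 1.03 and 1.05, and mir-449 and mir-1937 lie above families of similar depth.

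Lists of families with a shared location or role were described by their counts. The families mir-199 and mir-214, which share the Dnm3os transcript, held 20.6% ± 0.476 (SD, n = 3) of precursor reads together, nearly all of it mir-199, while mir-214 had 346, 535 and 464 reads. Only Mir199a-2 lies in Dnm3os, and the family count also takes reads of Mir199a-1 and Mir199b, which lie opposite Dnm2 and Dnm1. The list of let-7 and its cluster partners held 14.1% ± 3.57, through let-7, mir-10 and lin-4. The Rfam family mir-10 joins miRNAs of the Hox clusters with mir-99 and mir-100, and only the latter lie beside let-7 genes, so its reads cannot be divided between them. The mir-17/92 and mir-106b/25 clusters, which drive proliferation, had 4 of 6 listed families counted and 848, 1353 and 1078 reads, most of them mir-92. As with mir-99 and mir-100, a miRNA that Rfam joins to another family has no count of its own. A listed name without a count in these lists therefore does not show that the miRNA was absent. Of 12 germ cell and gonad families 6 were counted, with 1.10% ± 0.181 (SD, n = 3), led by mir-34, mir-202 and mir-449. The pluripotency families had 13, 4 and 1 reads. The 13 reads of replicate 1 were all of mir-430, which has no mouse miRNA gene of its number. mir-302 had the 4 reads of replicate 2 and mir-290 the 1 read of replicate 3. None of the 4 repeat-rich Sfmbt2 families was counted.

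Of the 19 families of the Dlk1-Dio3 cluster, which is expressed from the maternal chromosome, 10 were counted, with 222, 177 and 172 reads and 0.139% ± 0.0433. Only mir-134 had at least 10 reads in every library. The vascular and muscle list was counted in 7 of 7 families, with 6432, 5930 and 8051 reads and 4.89% ± 0.970. mir-133 had most reads, followed by mir-143 of smooth muscle, mir-126 of endothelium and mir-145 of smooth muscle. Blood families had 679, 409 and 529 reads, led by mir-451, and the liver, neural and endocrine list had 1048, 1252 and 1204, led by mir-7. Mature markers of these tissues were at 452, 319 and 385 for the red cell miR-451a, 33, 1 and 21 for the leukocyte miR-223-3p, 0, 1 and 0 for miR-122-5p, and 1, 24 and 1 for miR-9-5p. The most abundant of them was miR-451a, and their part in the precursor counts was not tested.

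A family was called known in the mouse when RefSeq, with 1228 mouse miRNA genes, had a gene of its number. By this rule 143 families were known and held 86.6% ± 1.34 (SD, n = 3) of precursor reads. The other 116 families held 12.1%, 13.3% and 14.8%, and 13.4% ± 1.34 on average. Of these, 38 were counted in all 3 libraries and 59 in 1. mir-689 and mir-1937 held 8.26% ± 1.43 of precursor reads, and without them the share was 5.12%. The rest are named by organism, as far as the name is known, and an Rfam name shows the alignment a read matched, not where the RNA came from.

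Plant families held the most reads of the remaining groups. Plant miRNAs are cut from hairpins by a Dicer-like enzyme in the nucleus and have their own families, and 32 plant families had 4825, 4456 and 7827 reads, or 4.11%, 2.83% and 5.27% of precursor reads (mean 4.07% ± 1.22, SD, n = 3). Replicate 3 was the high library and replicate 2 the low one. mir-166, which regulates leaf polarity genes, had 1748, 1559 and 2812 reads, MIR398, of copper and stress genes, had 790, 729 and 1332, and MIR167_1, of auxin response factors, had 622, 617 and 1088.

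Further plant families among the leading names were MIR159, with 289, 338 and 579 reads, MIR169_2, with 377, 190 and 442, MIR396, with 193, 206 and 330, and MIR164, with 166, 150 and 214. Replicate 3 was highest for all of these on reads. Among the 17 plant families with at least 10 reads in every library, 12 had their highest share of precursor reads in replicate 3, and 16 did when scaled to clean reads. The median ratio of replicate 3 to replicate 2 was 1.79, and that to replicate 1 was 1.28.

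By share of precursor reads, the 70 mouse families at the same minimum had no such lean, with 25, 21 and 24 highest in replicates 1, 2 and 3. Their median ratios of replicate 3 were 1.07 to replicate 2 and 0.964 to replicate 1. The mouse families were not counted in this way on the scale of clean reads. The leading plant families kept their proportions, since mir-166 held 36.9%, 35.9% and 36.4% of the reads of the 17 families and MIR398 held 16.7%, 16.8% and 17.2%. The less abundant members kept their proportions less closely, as MIR169_2 at 7.97%, 4.37% and 5.72%. The source of the plant reads was not tested.

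**Figure D5:**
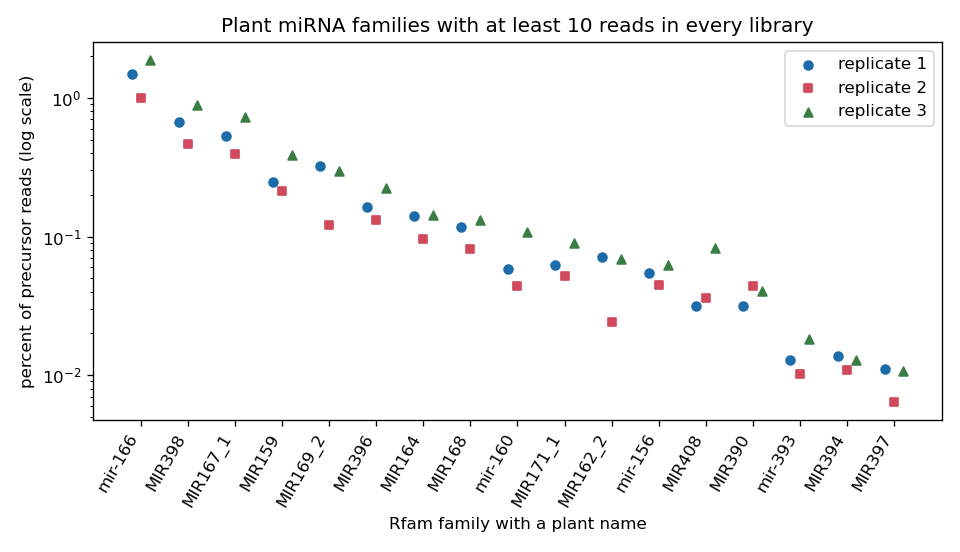
Share of precursor reads on a log scale for the 17 plant families with at least 10 reads in every library, with a symbol for each replicate. Replicate 3 is highest in 12 of the 17 and replicate 2 is low in most, and mir-166 leads in every library.

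Families with human names numbered 34 and held 0.768% ± 0.105 (SD, n = 3), with 995, 1021 and 1202 reads. mir-611 had most of them, with 761, 722 and 819 reads. Families with invertebrate names numbered 26, with 126, 100 and 378 reads, of which mir-14 had 27, 28 and 80. The 4 Giardia names had 119, 59 and 9 reads, the 8 virus names 67, 26 and 94, and 6 names were assigned to no organism. The invertebrate names held 0.142% ± 0.0999 (SD, n = 3), and the remaining groups held less.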

How the data were processed

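Small RNA of EVs from PND7 mouse testis was sequenced on the BGISEQ-500 platform as 3 libraries of a single group. The authors mapped clean reads with Bowtie2 and cmsearch and gave each read to a single class in the order miRBase, piRNABank, snoRNA and Rfam. The submitters' processing notes name Bowtie2 and mm10. The mismatches allowed and the meaning of the hairpin type are not given in the sources used here. The authors deposited raw counts for each small RNA, as whole numbers, and a percent of clean reads for each class. Another deposited column, labelled as UMI, proved to be CPM of clean reads for all named small RNAs and was left out. Catalogue sums were checked against the class counts and were equal.

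From the counts, shares of precursor reads were computed per library and given as mean and SD. Values with intervals use the exact binomial (Clopper-Pearson) method. Families were matched to mouse miRNA genes by number, in RefSeq, and in GENCODE as an alternative, and names without a match were assigned to organisms by hand. Ratios used an exact sign-flip permutation test, two-sided. The chi-square statistic of library pairs was tested on simulated data over 95 families: 20 pairs of equal proportions gave 0.752 to 1.27, and pairs with 20 families doubled gave at least 19.3. Named families were the 20 with the largest mean share, the 10 largest without a mouse gene, the 5 widest and 5 steadiest with at least 100 reads in every library, those with at least 50 reads in a library and 0 in another, the 5 highest and 5 lowest ratios to mature reads, and the lists. The members and lists were chosen with earlier results of these data known, and list members were also matched within combined family names (mir-9/mir-79, and lin-4 as mir-125) after the values were seen. Alternatives changed the denominator, the minimum count, the scaling, the gene table, pooling and each replicate left out. Software was SciPy 1.17.1, numpy 2.4.6 and pandas 2.3.3 under Python 3.11.15, with figures drawn in matplotlib 3.10.9. The other experiments of the study were not analysed here.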

Additional observations from a re-analysis of the deposited data

How the results depend on the processing

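Of 54 alternative values for 10 results, 38 stayed within the spread between replicates or within 1.5 times the count, 16 moved and none reversed. The number of families was 127 with at least 1 read in every library and 95 with at least 10. The precursor share of clean reads became 1.51% of annotated reads, 0.624% of reads without the unmapped and 8.53% of miRNA reads. The median ratio of highest to lowest share was 1.68 with median-of-ratios size factors, 2.29 with at least 1 read in every library and 1.62 with at least 100. Families without a mouse gene of their number fell to 25 with at least 10 reads in every library, and their share was 15.8% when matched to the table of miRNA sequences and 5.12% without mir-689 and mir-1937, both chosen after seeing the data. The lowest rho was 0.870 with at least 10 reads in every library. With each replicate left out in turn, the ranges were 221 to 236 families, 0.494% to 0.569% of clean reads, 19.6% to 22.6% for mir-23, 5.09% to 5.42% for mir-689, 65.8% to 67.3% for the 5 leading families, 1.35 to 1.61 for the median ratio, 89 to 102 families without a mouse gene, 12.7% to 14.0% for their share, 0.702 to 0.765 for the lowest rho and 1.84 to 2.12 for the log2 ratio of mir-23 to mir-689. The ratio of highest to lowest is smaller over fewer libraries by construction. Where a value moved otherwise, the cause was not tested. No paired analysis was possible because the series has a single group.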
